A study of Mus musculus with 18 samples.

Results

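The inner root sheath is the rigid sleeve that surrounds and shapes the growing hair inside its follicle. Its genes were followed here as 10 members chosen by symbol: the type I keratins Krt25, Krt26, Krt27 and Krt28, the type II keratins Krt71, Krt72, Krt73 and Krt74, the matrix protein gene Tchh and the enzyme gene Padi3. All 10 were found among the 55357 genes of the deposited table, and 9 of them had reads. The table holds bulk RNA from back skin of 18 FVB mice aged 6 months, 1 library per mouse. There were 6 N-IKKα mice, in which exogenous IKKα sits in the nucleus of keratinocytes, 6 C-IKKα mice, in which it sits in the cytoplasm of keratinocytes, and 6 WT mice. IKKα is an NF-kB pathway kinase with a role in keratinocyte differentiation, and Chuk is its gene. The promoter behind the transgenes and the number of founder lines are not given in the sources used here.

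A hair follicle builds a new hair in its growth phase, anagen, and then passes through regression into rest. Matrix cells at the base of a growing follicle give rise to the hair shaft at the centre and to the inner root sheath around it, which has a cuticle, a Huxley layer and a Henle layer. Sheath cells fill with keratin filaments, each made of 1 type I and 1 type II keratin, and with trichohyalin, the product of Tchh. Peptidylarginine deiminases such as the Padi3 product convert arginines of trichohyalin to citrulline, and transglutaminases then cross-link it to the filaments. In mice, mutations in Krt71 or Krt25 give wavy or curly coats, and in people PADI3, TCHH and TGM3 are linked to uncombable hair.

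The libraries fell into a growing-hair and a resting-hair set. The growing-hair set held N8, N9 and N11, C14, and WT1 and WT4, and the resting-hair set held 3 N-IKKα, 5 C-IKKα and 4 WT libraries. These sets came from hair gene levels in the same libraries and are not groups of the study, so differences between the sets are a description and were not tested. The mean log2 level of 15 hair shaft keratins, none of them a member, was 8.49 to 11.2 in growing-hair libraries and 1.01 to 3.56 in resting-hair libraries. All 6 growing-hair libraries read as female from Ddx3y, as did 1 N-IKKα, 1 C-IKKα and 2 WT libraries of the resting-hair set, so sex moved with the hair set, and its part in differences between the sets was not tested. As a check of the tissue, the summed level of 6 epidermal keratins, of which Krt80 was listed at 0, was 31321 to 83453 normalized counts in growing-hair and 96424 to 161090.5 in resting-hair libraries. Each library held 11.1 to 15.7 M counted reads, and 1 read was worth 0.816 to 1.20 normalized counts. Chuk had 804 to 1050.2 normalized counts in N-IKKα skin, 853 to 934 in C-IKKα skin and 851 to 1267 in WT skin, ranges that overlap. The table does not separate exogenous from endogenous IKKα RNA.

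The upstream sequences of the members were read because the members with reads were high in the same libraries. Tchh, listed at 0 in every library, was searched with them. RefSeq promoters of build GRCm38.p6 were given for 9 of the 10 members, all but Krt74, and the 250 bases before the annotated start were searched on both strands for the TATA box TATAAA, the GATA motif AGATAA, the homeodomain core TAATTA and the TCF/LEF core CTTTGA. These 4 motifs were chosen after the sequences had been seen. TATAAA on the gene's own strand lay in 6 of 9 member promoters, against 7.59% of 32851 promoters, and on either strand in 7 of 9, against 12.4%. AGATAA on either strand lay in 5 of 9, against 9.99% of all promoters, TAATTA in 4 of 9, against 4.84%, and CTTTGA in 2 of 9, against 13.8%. Tchh is among the promoters with AGATAA and among those with CTTTGA. Related keratin genes were counted as separate promoters. The 4 promoters that held both TATAAA and AGATAA are those of Krt71, Krt73, Krt25 and Krt27, all read 5′ to 3′ on the minus strand, with these motifs in capitals. They lie at chr15:101743098-101743347, chr15:101802361-101802610, chr11:99322952-99323201 and chr11:99351119-99351368 in that order.

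Krt71: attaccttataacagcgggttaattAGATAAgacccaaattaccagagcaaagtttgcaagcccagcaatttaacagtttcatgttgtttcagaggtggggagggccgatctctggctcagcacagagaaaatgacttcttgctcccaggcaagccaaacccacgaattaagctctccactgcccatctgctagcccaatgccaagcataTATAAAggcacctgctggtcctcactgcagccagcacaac
Krt73: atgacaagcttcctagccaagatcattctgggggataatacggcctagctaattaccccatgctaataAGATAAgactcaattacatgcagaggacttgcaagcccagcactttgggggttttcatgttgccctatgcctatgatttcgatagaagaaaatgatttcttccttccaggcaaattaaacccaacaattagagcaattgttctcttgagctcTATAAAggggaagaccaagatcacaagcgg
Krt25: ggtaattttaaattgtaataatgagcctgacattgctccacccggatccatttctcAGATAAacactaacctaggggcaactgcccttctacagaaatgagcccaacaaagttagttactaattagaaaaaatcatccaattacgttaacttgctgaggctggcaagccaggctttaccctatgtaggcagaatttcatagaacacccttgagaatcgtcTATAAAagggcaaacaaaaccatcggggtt
Krt27: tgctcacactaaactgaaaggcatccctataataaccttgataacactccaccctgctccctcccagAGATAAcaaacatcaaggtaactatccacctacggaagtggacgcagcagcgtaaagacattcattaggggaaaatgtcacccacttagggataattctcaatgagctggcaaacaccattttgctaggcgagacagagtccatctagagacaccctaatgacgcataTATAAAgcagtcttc
The TATA box began at -40 in Krt71, at -30 in Krt73 and Krt25 and at -15 in Krt27, counted from the annotated start. The GATA motif began at -225 in Krt71, -182 in Krt73, -194 in Krt25 and -183 in Krt27. A homeodomain core began at -230 in Krt71, where its last base is also the first base of the GATA motif, at -201 in Krt73 and at -131 in Krt25. These are matches of letters, and binding was not measured.

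The members sit in 4 places of the mouse genome. In GENCODE M21, on build GRCm38, the type I genes lie side by side on chromosome 11 and the type II genes on chromosome 15, all on the minus strand, while Tchh lies on chromosome 3 and Padi3 on chromosome 4. The identifiers in the files are ENSMUSG00000051879.5 for Krt71, ENSMUSG00000035831.3 for Krt25 and ENSMUSG00000025328.10 for Padi3. Krt74 is annotated there as a transcribed unitary pseudogene. Of all 50-base words in the members' annotated transcripts, 10.4% of those of Krt25 and 11.1% of those of Krt27 also occurred in another member, and 2.43% of those of Krt74 occurred in Krt71 or Krt73. How the authors' counting treated such reads is not given in the sources used here, so levels of Krt74, which are low beside Krt71, are uncertain.

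Krt71, whose keratin is made in all layers of the sheath, was the most abundant member. It had 81130.0, 62936 and 68640.3 normalized counts in the growing-hair N-IKKα libraries N8, N9 and N11, 27604 in C14, and 42283 and 94553 in the growing-hair WT libraries WT1 and WT4. In the resting-hair libraries it had 209, 11.4 and 28.7 in N-IKKα skin, 68.0, 97.3, 467, 16.6 and 2152 in C-IKKα skin (C13, C15, C16, C17 and C18) and 26.2, 21.4, 37.4 and 481 in WT skin. The lowest growing-hair library, C14, thus stood far above the highest resting-hair library, C18. Of the 9 members with reads, all 9 had every growing-hair library above every resting-hair library, a property shared by 8.45% of the 17667 genes tested over all libraries. A further 5.25% of genes had every growing-hair library below. The sets were drawn from hair genes, so nothing is read from this count.

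The distance between the sets was largest for Krt71, Krt73 and Krt25. Mean log2 levels were 9.45 higher in growing-hair than in resting-hair libraries for Krt71, 9.29 for Krt73 and 9.27 for Krt25. For Padi3 the difference was 8.77, for Krt72 8.66, for Krt27 8.26, for Krt26 7.19, for Krt28 7.15 and for Krt74 7.07. Together the members took 0.443 to 1.57% of all counted reads in growing-hair libraries and 0.000521 to 0.0395% in resting-hair libraries. In whole skin, fewer sheath cells and less RNA per sheath cell cannot be told apart.

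**Figure D1:**
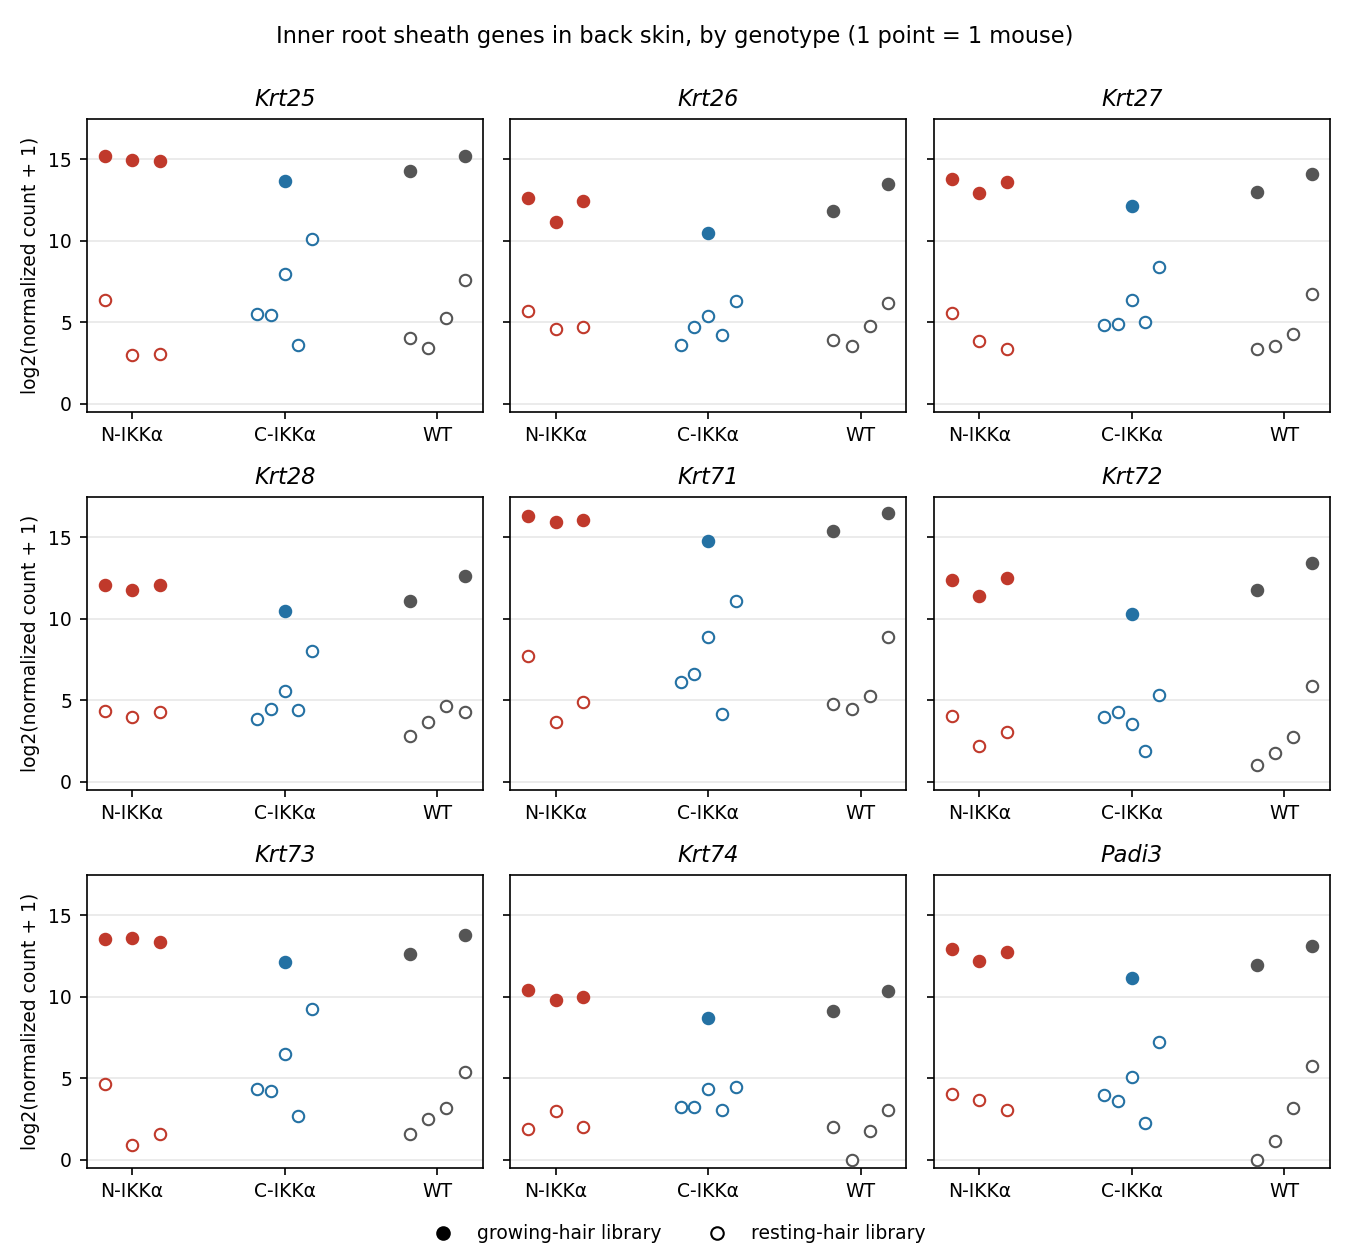
Log2(normalized count + 1) of the 9 members with reads, 1 point per mouse, by genotype, with growing-hair libraries filled and resting-hair libraries open. Filled points lie above all open points in every panel, and within the filled points C14 is the lowest in every panel.

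Tchh was listed at 0 in all 18 libraries. Tchhl1 and Crnn encode other proteins of the same S100-fused family. They had 1641 to 17059 and 2798 to 19550 normalized counts in growing-hair libraries, against 4.40 to 190.1 and 7.92 to 186 in resting-hair libraries. Rptn and Hrnr, also of this family, were listed at 0 everywhere as well. Flg, of the same family, had 1723 to 5669 in growing-hair and 1386 to 2627 in resting-hair libraries, ranges that overlap. Flg2 went the other way, with 8872 to 15457 normalized counts in growing-hair and 21104 to 35056 in resting-hair libraries. In GENCODE M21 the non-coding gene Gm37245 overlaps Tchh on the opposite strand without sharing exon bases, and it had 1121, 550 and 885 normalized counts in N8, N9 and N11, 156 in C14, and 424 and 1653 in WT1 and WT4. The strand setting of the count and its annotation release are not given in the sources used here. No level of trichohyalin RNA is therefore read from these files, and Tchh enters no count below.

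Levels of different members were compared per kilobase of exon, with exon lengths from GENCODE M21. Krt71 made up 44.7 to 46.6% of the summed per-kilobase level of the 9 members in the 6 growing-hair libraries, Krt25 20 to 26.2% and Krt27 8.28 to 12.3%. Krt73 followed with 6.74 to 9.32%, then Krt72 with 2.15 to 5.79%, Krt28 with 3.11 to 3.95%, Padi3 with 2.22 to 2.91%, Krt26 with 1.0 to 3.17% and Krt74 with 0.80 to 1.02%. Ranges of Krt71, Krt25 and Krt27 did not overlap, whereas those of Krt27 and Krt73, of Krt72 and Krt28, and of Padi3 and Krt26 did. Type II keratins exceeded type I keratins per kilobase by a ratio of 1.42 in N8, 1.51 in N9, 1.45 in N11, 1.45 in C14, 1.39 in WT1 and 1.49 in WT4. The balance of the partner keratins thus differed little between libraries whose levels differed by up to 3.43 times for Krt71.

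Whether the transgenes moved the members in growing follicles was asked within the 6 growing-hair libraries. The ranges of N-IKKα and WT skin overlapped for all 9 members, and within the WT pair WT4 was high and WT1 low. Krt25 had 37758, 32362 and 30610.0 normalized counts in N8, N9 and N11, 13196 in C14, and 19656 and 38503 in WT1 and WT4. Krt73 had 12234, 12541 and 10739.7 in N8, N9 and N11, 4588 in C14, and 6284 and 14446 in WT1 and WT4. For both, the N-IKKα libraries lay between the WT pair and C14 lay below it.

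Padi3, the citrullinating enzyme, had 7692, 4755 and 6962 normalized counts in N8, N9 and N11, 2249.6 in C14, and 3906 and 9039 in WT1 and WT4. Krt72, a keratin of the sheath cuticle in the human follicle, had 5429.7, 2657 and 5835 in N8, N9 and N11, 1272 in C14, and 3489 and 11181 in WT1 and WT4. Here N9 was below the WT pair, as it was for Krt26, another cuticle keratin in people, and for Krt27. Krt26 had 6243, 2281 and 5496 in N8, N9 and N11, 1444 in C14, and 3709 and 11268 in WT1 and WT4.

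Among the others, Krt27, a type I keratin, had 14316, 7965 and 12362 normalized counts in N8, N9 and N11, 4527 in C14, and 8207 and 17957 in WT1 and WT4. Krt28, also of type I, had 4387, 3565 and 4278 in N8, N9 and N11, 1407 in C14, and 2173 and 6209 in WT1 and WT4. Krt74, a Huxley layer keratin in the human follicle, had 1366, 908 and 1029 in N8, N9 and N11, 423 in C14, and 569.5 and 1287 in WT1 and WT4. N8 was above both WT libraries for Krt74, and C14 was below every other growing-hair library for these genes as for the rest.

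For N-IKKα against WT in growing-hair libraries, log2 fold changes of the 9 members ran from -0.60 for Krt26 to 0.34 for Krt74, with a median of 0.14, beside 0.01 over all 17819 genes tested. None was called by limma at an adjusted p below 0.05, where 0% of all genes were called, and 0 of 9 had an unadjusted p below 0.05. EdgeR and DESeq2 on recovered reads called 0 members too. For Krt71 the fold change was 1.11, with 95% limits of 0.591 and 2.10. The direction rested on single WT libraries: the median was -0.51 without WT1 and 0.74 without WT4. WT1 also stood apart in other genes. The summed level of 10 immune genes was 9460 normalized counts in WT1 and 2240 to 3647 in the other growing-hair libraries. Of these genes, S100a9 had 1072 in WT1 and 8.52 to 29.2 in the others, but Cd3e, Cd8a and Cd207 were not highest in WT1. The keratin gene Krt16 had 1351 in WT1 and 72.9 to 642 in the others. The part of these differences in the fold changes against WT was not tested.

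All 9 members were lower in C14 than in both WT libraries of the growing-hair set. Their log2 fold changes ran from -2.30 for Krt72 to -1.02 for Krt74, with a median of -1.38, beside -0.03 over all 17819 genes. Of all genes tested, 47.5% had a positive log2 fold change. How many of them were lower in C14 than in both WT libraries was not counted, so nothing is read from the 9 of 9. Limma called 0 of 9 members, where 0% of all genes were called, with adjusted p from 0.534 to 0.586. There were 6 members with an unadjusted p below 0.05, namely Krt25, Krt26, Krt27, Krt28, Krt72 and Padi3, where 8.83% of all genes had one, and edgeR called 0. DESeq2 called Krt72 alone, with a log2 fold change of -2.50 and an adjusted p of 0.0272, where it called 171 genes or 1.04% of those tested. This is 1 library, assumed to vary like the others, so it describes that mouse more than the genotype. Without WT1, which leaves C14 against WT4 alone, limma called 7 members lower, where 605 genes or 3.44% of all were called, and the median was -1.99. Without WT4, which leaves C14 against WT1 alone, it called 0 members and 0 genes, and the median was -0.63. In both fits the lone libraries are assumed to vary like those of the N-IKKα group.

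Other tissue also differed in C14. The summed level of 10 skeletal muscle genes was 173557 normalized counts in C14, 44119, 64251 and 40181 in N8, N9 and N11, and 88136 and 17025 in WT1 and WT4, with all 10 higher in C14 than the WT mean and a median log2 fold change of 1.88. The 7 adipocyte genes were also all higher, with a median of 1.52, and the 15 hair shaft keratins all lower, with a median of -1.85. None of these genes was called by limma. Their part in the lower sheath levels of C14 was not tested.

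**Figure D2:**
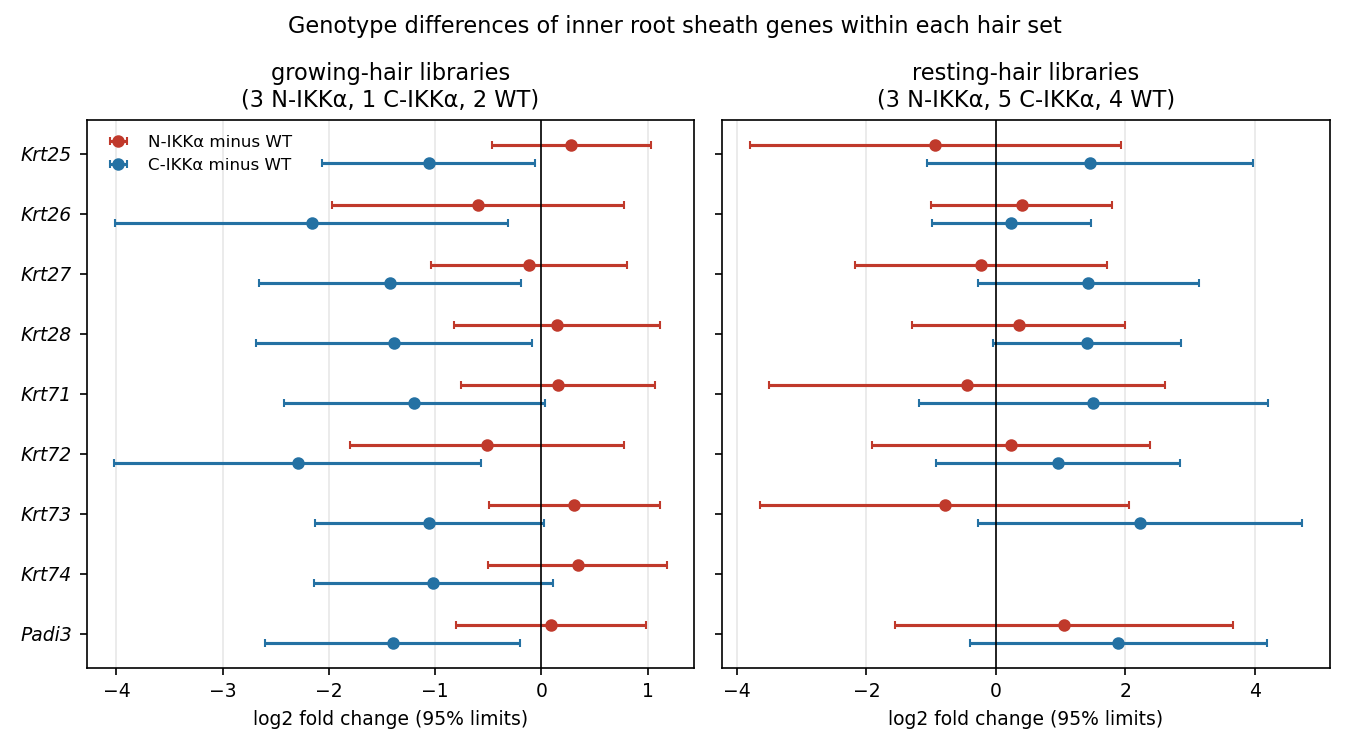
Log2 fold change of each member against WT with 95% limits from limma, in growing-hair libraries (left) and resting-hair libraries (right), where Krt74 fell below the filter. Limits of N-IKKα include 0 for every member in both panels, and C-IKKα values, from the single library C14 on the left and 5 libraries on the right, are all negative on the left and all positive on the right.

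In resting-hair skin the members were low but present. Krt71 had reads above the limit that a count of 0 allows, 3 reads, in all 12 libraries, Padi3 in 10 and Krt74 in 7. The question was whether the transgenes changed this residual level. Members tended to be highest in C18, WT6, C16 and N7, and the spread within a genotype was wide. For Krt71 it reached from 16.6 in C17 to 2152 in C18.

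Against WT, all 8 members tested had positive log2 fold changes in C-IKKα resting-hair skin, from 0.24 for Krt26 to 2.23 for Krt73, with a median of 1.44, beside 0.005 over all 17864 genes tested. Limma called 0 of 8, where 1.09% of all genes were called, and 0 of 8 had an unadjusted p below 0.05. EdgeR and DESeq2 also called 0. Krt28, a type I partner keratin, came closest, with an unadjusted p of 0.0559 and an adjusted p of 0.41 in limma's fit across all genes. It had 13.4, 21.1, 46.6, 20.3 and 259 normalized counts in C13, C15, C16, C17 and C18, against 6.05, 11.9, 24.5 and 18.0 in WT2, WT3, WT5 and WT6, so the groups overlapped.

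Krt73 had 19.6, 17.4, 87.7, 5.55 and 615 normalized counts in the same C-IKKα libraries, against 2.02, 4.76, 8.18 and 40.9 in WT. Padi3 had 14.4, 11.0, 32.2, 3.70 and 152, against 0, 1.19, 8.18 and 54.1 in WT. The groups overlapped for both genes, and C18 was the highest C-IKKα library for each. Krt27 had 27.8, 28.5, 82.4, 31.4 and 329.8 in these C-IKKα libraries, against 9.07, 10.7, 18.7 and 105 in WT. Krt72, the cuticle keratin, had 14.4, 18.4, 10.7, 2.77 and 39.9, against 1.01, 2.38, 5.84 and 57.7 in WT. For Krt27 only WT6 reached into the C-IKKα range, and for Krt72 WT6 was the highest of all. Without C18 the median log2 fold change of the 8 members was 0.65 and without WT6 it was 2.23. C18 was the only female among the C-IKKα resting-hair libraries, and with sex as a covariate the median was 1.59.

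Krt74 did not reach the filter in resting-hair skin and was compared by an exact two-sided permutation test of mean log2 levels. It had 8, 9, 22, 8 and 22 reads in C13, C15, C16, C17 and C18, 3, 8 and 3 reads in N7, N10 and N12, and 3, 0, 2 and 6 reads in WT2, WT3, WT5 and WT6. In normalized counts C-IKKα libraries ran from 7.40 to 20.9 and WT libraries from 0 to 7.22, so these groups did not overlap, though the nearest values almost met. C-IKKα minus WT was 1.97 on the log2 scale, with an exact p of 0.00794, the smallest that 126 splits allow, and an adjusted p of 0.0238 over 3 pairs. This adjustment covers 3 pairs of 1 gene, whereas limma's covers all genes tested, so their adjusted p are not comparable. In limma, 12.6% of all 17864 genes had an unadjusted p below 0.05 in this comparison. How many of all genes did not overlap between these groups was not counted. N-IKKα minus WT was 0.62 (exact p 0.486), and N-IKKα minus C-IKKα was -1.35 (exact p 0.0536). With any 1 library of the C-IKKα and WT groups left out, the difference stayed between 1.40 and 2.41, and every C-IKKα library stayed above every WT library. The exact p was then the smallest that the splits allow. It was 0.0179 of 56 splits without a WT library and 0.0286 of 70 without a C-IKKα library. The adjusted p over 3 pairs was 0.0536 without a WT library, 0.0857 without C13 or C15 and 0.0429 without C16, C17 or C18. It depends on the other pairs as well as on the number of libraries. The call at 0.05 thus held only without C16, C17 or C18. These counts are few, and reads shared with Krt71, which was also high in C18 and C16, were not tested for. The C-IKKα resting-hair libraries came from 1 female and 4 males and the WT ones from 2 females and 2 males, and the part of sex in this difference was not tested. With no filter, limma called 0 members, Krt74 included.

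N-IKKα resting-hair skin showed no common direction against WT. Of 8 members tested, 4 were positive and 4 negative, from -0.93 for Krt25 to 1.05 for Padi3, and the median was 0.003. Limma called 0 of 8, where 0.0112% of all genes were called, 0 reached an unadjusted p of 0.05, and the count tools DESeq2 and edgeR called 0. Krt25 had 81.2, 7.04 and 7.18 normalized counts in N7, N10 and N12, against 15.1, 9.53, 37.4 and 192 in WT2, WT3, WT5 and WT6, and N7 alone lay near the upper WT values. For Krt71 the fold change was 0.735, with 95% limits of 0.0881 and 6.14.

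Set against each other in resting-hair skin, N-IKKα was lower than C-IKKα for 7 of 8 members, from -3.02 for Krt73 to 0.16 for Krt26, with a median of -1.35. Krt73 had 24.0, 0.88 and 2.05 normalized counts in N7, N10 and N12, against the C-IKKα values above, and its unadjusted p of 0.0323 was the only one below 0.05. Its adjusted p in limma's fit was 0.648. Limma called 0 of 8 members, where 0.336% of all genes were called (0.313% lower and 0.0224% higher in N-IKKα), and edgeR and DESeq2 called 0. This comparison shares its C-IKKα libraries with the one against WT. Without C18 its median was -0.69.

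Whether the N-IKKα difference itself depended on the hair set was tested as an interaction over all 18 libraries. The change in the log2 fold change from resting-hair to growing-hair skin ran from -0.99 for Krt26 to 1.22 for Krt25, with a median of -0.21. Limma called 0 of 9 members, where 0% of all genes were called, with 0 unadjusted p below 0.05 and 0 calls among the members by DESeq2 or edgeR.

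The comparison over all libraries pools the hair sets, and the groups hold 3, 1 and 2 growing-hair libraries in the order N-IKKα, C-IKKα and WT. Over all 6 libraries per group the median log2 fold change of the 9 members was 1.49 for N-IKKα against WT, -0.57 for C-IKKα against WT and 1.97 for N-IKKα against C-IKKα. Standard errors ran from 1.93 to 2.74. Limma called 0 of 9 members in each, where 0.00566%, 0.345% and 0.43% of all genes were called in that order. No member had an unadjusted p below 0.05 (0 of 9), and the count tools edgeR and DESeq2 made 0 calls among the members. With the hair set as a covariate, the median was 0.04 for N-IKKα against WT, 0.99 for C-IKKα against WT and -0.73 for N-IKKα against C-IKKα, the last 2 on the other side of 0 from the pooled values. With 1 library left out, the pooled median ran from 0.43 without N8 to 2.89 without WT4 for N-IKKα against WT, and from 1.06 without N8 to 3.18 without N10 for N-IKKα against C-IKKα.

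The mix of members was compared between libraries by setting each member against Krt71. Per 100 normalized counts of Krt71, Krt26 had 7.70, 3.63 and 8.01 in N8, N9 and N11, 5.23 in C14, and 8.77 and 11.9 in WT1 and WT4. Krt72 had 6.69, 4.22 and 8.5 in N8, N9 and N11, 4.61 in C14, and 8.25 and 11.8 in WT1 and WT4. Both were thus lowest beside Krt71 in N9 and C14 and highest in WT4. Krt73 went the other way in N9, with 19.9 per 100 of Krt71, against 14.9 to 16.6 in the other growing-hair libraries.

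Highest over lowest, the ratio to Krt71 varied 3.29 times for Krt26 and 2.80 times for Krt72 across the 6 libraries, but 1.25 to 1.53 times for the other 6 members. Over these 6 libraries the log2 levels of Krt26 and Krt72 correlated at 0.989, those of Krt25 and Krt73 at 0.987, and those of Krt26 and Krt73 at 0.718. These values are a description over 6 libraries that share depth and scaling within each library. In the human follicle Krt73 is also a cuticle keratin, while Krt25, Krt27 and Krt28 are made in all 3 layers of the sheath.

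**Figure D3:**
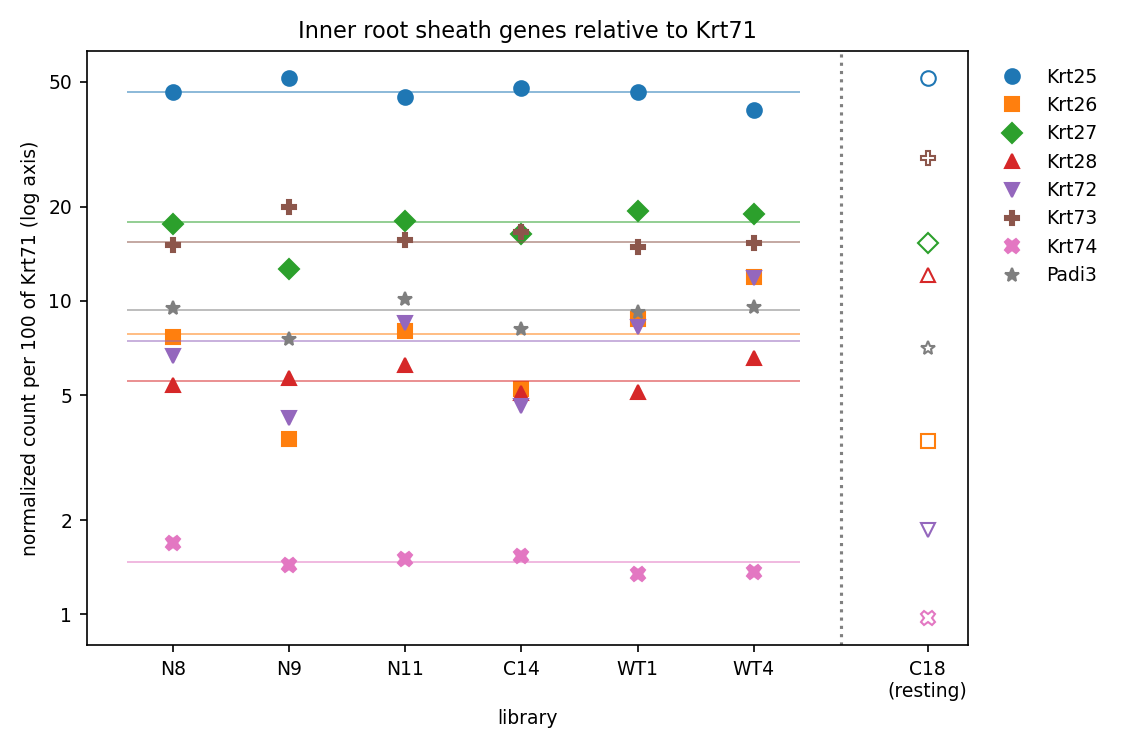
Normalized count of each member per 100 of Krt71, on a log axis, in the 6 growing-hair libraries, with the median of these as a line, and in the resting-hair library C18. Krt26 and Krt72 are lowest in N9 and C14, and C18 has Krt72 at 1.86 and Krt73 at 28.6.

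C18, which is in the resting-hair set, held the most sheath RNA of the resting-hair libraries. Its members had a mean log2 level of 7.80, against 2.61 to 5.97 in the other 11. Per 100 of Krt71 it had 1.86 of Krt72, 3.58 of Krt26, 12.1 of Krt28 and 28.6 of Krt73. Krt72 lay below all growing-hair libraries, and Krt28 and Krt73 above them. Krt26 in C18, with 81 reads, was close to the lowest growing-hair value, 3.63 in N9. The summed level of 10 proliferation genes was 3947 normalized counts in C18 and 1854 to 3237 in the other resting-hair libraries. Sums of 8 melanocyte genes (4617, against 2340 to 3128) and of 15 hair shaft keratins (301, against 29.6 to 165) were highest in C18 too. So were those of 10 dermal papilla genes (1564, against 697 to 1367), 14 regulators of the sheath or hair matrix (22166, against 18163 to 21480) and 10 immune genes (7872, against 4021 to 6717). Those of the other lists, among them the cross-linking and citrullination enzymes and the companion layer and outer root sheath genes, were not. The sum of 6 epidermal keratins was lowest in C18 (96424, against 101202 to 161090.5). The hair stage of C18, beyond the set it was given, was not tested.

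N9 and C18 also stood apart when the sheath was set against the hair shaft. The mean log2 level of the 9 members exceeded that of the 15 hair shaft keratins by 4.16 in N9 and 4.24 in C18, against 2.42 to 2.90 in the other growing-hair libraries and 0.91 to 2.81 in the other resting-hair libraries. N9 had 14260.3 normalized counts of the 10 proliferation genes, the highest of all 18 libraries, beside 11242 in N8, 8784 in N11, 5371 in C14, and 6025 and 8450.1 in WT1 and WT4.

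**Figure D4:**
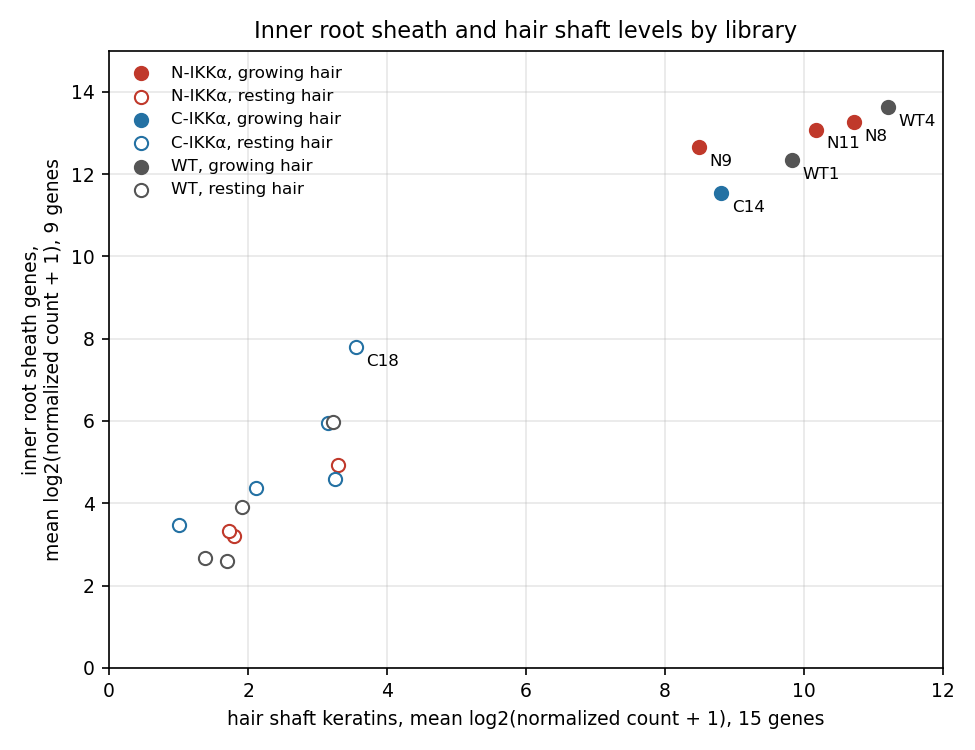
Mean log2 level of the 9 sheath members (vertical) against that of 15 hair shaft keratins (horizontal), 1 point per library. Growing-hair libraries lie at the upper right, with N9 at 12.7 for the members and 8.49 for the shaft, and C18 lies above the other resting-hair libraries at 7.80 and 3.56.

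Regulators of the sheath or hair matrix, and enzymes that cross-link or citrullinate proteins, were read from lists that hold no member. Of 14 regulators, 13 had every growing-hair library above every resting-hair library. Over all genes tested, 8.45% did so, and 5.25% had every growing-hair library below. The sets were drawn from hair gene levels, so nothing is read from this count. The homeobox gene Dlx3 had 3623 to 9187 normalized counts in growing-hair libraries, against 318 to 749.9 in resting-hair libraries, and Msx2 1019 to 2492, against 73.9 to 203. The exception was Gata3, a regulator that mouse inner root sheath needs, with 3613 to 7346, against 4212 to 5399.7. Of the 9 enzymes that cross-link or citrullinate proteins, 8 passed the filter on low values. Padi1, Padi4, Tgm3 and Tgm6 separated the sets in the same way, beside 8.45% of all genes. Tgm3 had 185 to 1711, against 10.5 to 50.8, and Padi1 472 to 3098, against 0 to 33.3. Padi2, Tgm1, Tgm2 and Tgm5 overlapped between the sets. Growing-hair medians were lower for Tgm5 (240, against 479), Padi2 (15.15, against 42.6) and Tgm2 (77.8, against 106). For Tgm1 the median was higher (70.4, against 30.5).

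The same lists were then compared by genotype within each hair set. In growing-hair libraries limma called 0 of 14 regulators and 0 of 8 enzymes tested in either transgenic against WT. For N-IKKα, 12 of 14 regulators were positive, with a median log2 fold change of 0.40 beside 0.01 over all genes, and Sox21 (0.82) and Lef1 (0.80) had the smallest p, with an adjusted p of 0.861 each in limma. For C14, 12 of 14 regulators were negative, with a median of -0.48, and Prdm1 (-0.87) and Ovol1 (-0.79) had the smallest p, with an adjusted p of 0.578 and 0.585 in limma. Of the enzymes in N-IKKα skin, 6 of 8 were negative, with a median of -0.32. Of the enzymes in C14, 5 of 8 were negative, with a median of -1.13, and Tgm3, the transglutaminase of the sheath, had a log2 fold change of -2.41 and an adjusted p of 0.534 in limma.

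In resting-hair skin, limma called 1 of the 14 regulators in C-IKKα against WT, where 1.01% of all genes were called higher and 0.084% lower. Lef1, a transcription factor of the Wnt pathway in hair matrix, had 197, 151, 243, 140.5 and 405 normalized counts in C13, C15, C16, C17 and C18, against 119, 102, 57.3 and 67.4 in WT2, WT3, WT5 and WT6, and these groups did not overlap. It rose by 1.33 on the log2 scale (SE 0.29), with an adjusted p of 0.0402 in limma. EdgeR gave an adjusted p of 0.0586 and DESeq2 0.000475. With 1 of the 12 resting-hair libraries left out in turn, the adjusted p in limma ran from 0.0193 to 0.149, and the call held only without WT2, N10 or C15. Lef1 in N-IKKα skin had 144, 112 and 155, with a log2 fold change against WT of 0.70 and an adjusted p of 0.727 in limma.

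Krt75, a type II keratin of the companion layer that lines the sheath, went the other way. It had 614, 1013, 772, 826 and 1045 normalized counts in C13, C15, C16, C17 and C18, 1589, 1297 and 1701 in N7, N10 and N12, and 1906, 1438, 1226 and 1569 in WT2, WT3, WT5 and WT6. Every C-IKKα library lay below every N-IKKα and WT library. The log2 fold change of C-IKKα against WT was -0.85 (SE 0.16), with an adjusted p of 0.0177 in limma, 0.0243 in edgeR and 5.78e-05 in DESeq2. With 1 library left out, the adjusted p in limma ran from 0.00669 to 0.0646, above 0.05 only without C16 or C17. N-IKKα against C-IKKα gave 0.86 with an adjusted p of 0.0508 in limma.

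Krt16, an outer root sheath and stress keratin, was the other called gene among the 12 of the companion layer and outer root sheath list. Limma called 1.01% of all genes higher and 0.084% lower in C-IKKα against WT resting-hair skin. It had 702, 1445, 1016, 1098 and 764 normalized counts in C13, C15, C16, C17 and C18, 68.3, 184 and 130.2 in N7, N10 and N12, and 109, 119, 102 and 102 in WT2, WT3, WT5 and WT6. The log2 fold change of C-IKKα against WT was 3.16, with an adjusted p of 5.44e-05 in limma, and that of N-IKKα against C-IKKα was -3.03, with an adjusted p of 0.000178. Both calls held under each setting, tool and left-out library tried.

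**Figure D5:**
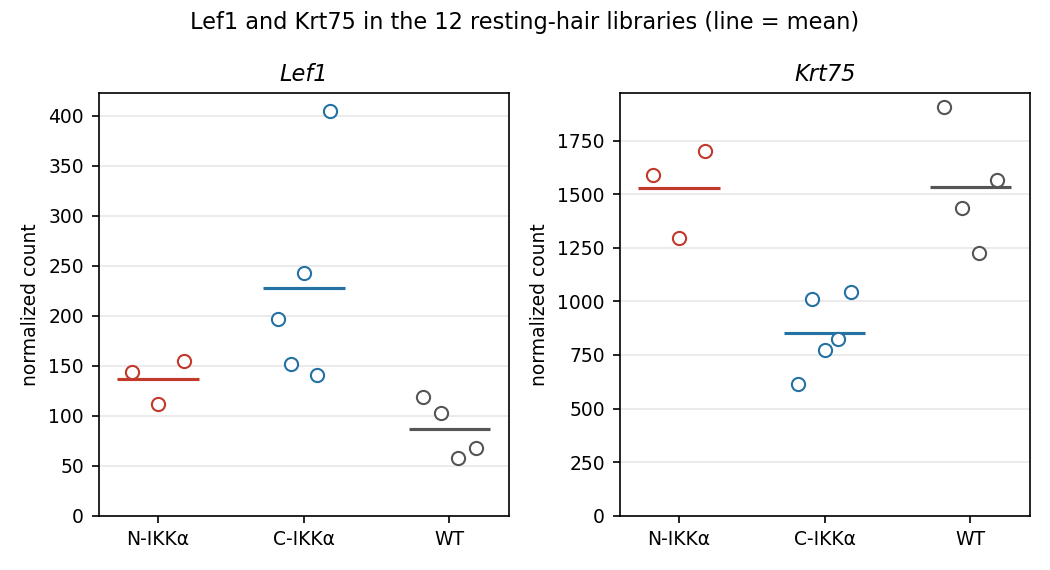
Normalized counts of Lef1 and Krt75 in the 12 resting-hair libraries by genotype, 1 point per mouse, with a line at the group mean. C-IKKα libraries lie above all WT libraries for Lef1 (140.5 to 405, against 57.3 to 119) and below all WT libraries for Krt75 (614 to 1045, against 1226 to 1906).

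Other cell types of the skin were read beside these comparisons. In C-IKKα against WT resting-hair skin, limma called 1 of 7 dermal papilla genes and 1 of 5 interfollicular keratins tested, both higher. Of all genes tested, 1.01% were called higher there. Wif1, a secreted Wnt inhibitor, had 595, 290.1, 765, 739.5 and 720.4 normalized counts in C13, C15, C16, C17 and C18, 180.0, 131 and 129 in N7, N10 and N12, and 212, 96.5, 125 and 122 in WT2, WT3, WT5 and WT6. Every C-IKKα library was above every other resting-hair library, with a log2 fold change of 2.14 against WT (adjusted p 0.00142 in limma) and of -2.01 for N-IKKα against C-IKKα (adjusted p 0.00551), and both calls held under each setting, tool and left-out library tried. Krt2, a keratin of the upper epidermis, had 162, 46.8, 139.7, 111 and 46.6 in the same C-IKKα libraries, 48.0, 34.3 and 25.6 in N-IKKα skin, and 14.1, 23.8, 17.5 and 22.9 in WT skin. C-IKKα and WT did not overlap for Krt2, whose log2 fold change was 2.15, with an adjusted p of 0.0141 in limma that was 0.0534 without C16 and 0.0525 without C17. How many of all genes did not overlap between these groups was not counted. Nothing is therefore read from the lack of overlap for Lef1, Krt75, Wif1 and Krt2. Over all libraries Krt2 was 1.79 higher in C-IKKα than in WT skin (adjusted p 0.0244 in limma), and the log2 fold change of Krt16 was -2.69 for N-IKKα against C-IKKα (adjusted p 0.0306).

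In the same comparison of C-IKKα with WT resting-hair skin, 0 of 10 proliferation genes and 0 of 8 melanocyte genes were called by limma, with medians of 0.31 and 0.30 on the log2 scale, and 0 of 10 skeletal muscle genes, with a median of -0.55. Summed muscle levels ran from 66232 to 201443 normalized counts over the resting-hair libraries and from 17025 to 173557 over the growing-hair ones. The 7 adipocyte genes, 9 immune genes and 8 sebaceous gland genes tested had 0 calls too, with medians of -0.35, 0.24 and 0.34. The part of these cell types in the differences of Lef1, Krt75 and the members was not tested.

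The genes most like the members over all 18 libraries, among 12505 compared by the correlation of log2 levels with the members' mean, were Crnn (0.996), Kcnk16 (0.992), Gjb2 (0.989), Krt31 (0.987) and Capn8 (0.985). The libraries form separate sets, so the correlation inside each is given too. It was 0.972 in growing-hair and 0.967 in resting-hair libraries for Crnn, 0.978 and 0.872 for Gjb2, the gene of the gap junction protein connexin 26, and 0.81 and 0.877 for Krt31, a hair shaft keratin. Over the 6 growing-hair libraries alone the highest were Tmem62, Sertad1, Stra6, Ero1a and Crym, with correlations from 0.997 to 0.9996, whereas in resting-hair libraries theirs ran from -0.16 for Sertad1 to 0.34 for Crym. These values are descriptions over libraries that share depth and scaling, and the genes were not compared in any other way.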

How the data were processed

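RNA was measured in whole back skin of 18 mice, 6 per genotype, with 1 library each. The submitters' processing notes name featureCounts and the build GRCm39. Aligner, annotation release, strand setting, tool versions and scaling tool are not given in the sources used here. As deposited by the authors, the table holds a normalized signal per gene, which came out as gene counts divided by 1 factor per library. Dividing each library by its smallest step gave whole reads for 100% of nonzero values, within 0.001 reads, and 11.1 to 15.7 M reads per library. Fold change limits come from the spread between mice in the fit. The floor covers counting error only, and a count of 0 allows up to 3 reads, or 2.45 to 3.61 normalized counts.

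Levels were tested as log2(normalized count + 1) with limma 3.58.1 in R 4.3.3, after keeping genes with at least 10 normalized counts in 6 (all libraries), 3 (resting-hair) or 2 (growing-hair) libraries, with Benjamini-Hochberg adjustment over all genes tested and a threshold of 0.05. Fold changes of low genes are understated on this scale. The fits shared 1 estimate of the spread over the genotypes present. As alternatives, edgeR 4.0.16 and DESeq2 1.42.0 were run on the recovered reads. In C-IKKα against WT resting-hair skin limma called 195 genes and DESeq2 478, and the members called by each tool stand beside each comparison. The limma procedure was tested on simulated data. The simulation used 1 fixed spread and changed only genes above a minimum level, which most members did not reach in resting-hair skin. No error rate or power for the members is therefore read from it. Other pseudocounts, filters, scalings and covariates, and single libraries left out, were also tried. Krt74 in resting-hair skin was compared by an exact permutation test.

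The members, the hair sets and the gene lists were chosen with earlier results of these data known. By the rule for named genes, all members, up to 4 called genes of each list and the 5 genes most like the members were named. The rule also names the 2 genes of smallest p in a list without a call. These are given for regulators in growing-hair skin only, and of the enzymes Tgm3 alone is named, for C14. Library numbers differ between genotypes. The labels give 1 mouse per library, and p-values measure the spread between these mice. Annotation came from GENCODE M21 on GRCm38, matched by identifier for 52081 of 55357 genes, and no coordinate was carried between builds. Tchh, listed at 0 throughout, was left out of all tests.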

Additional observations from a re-analysis of the deposited data

Results flagged for a closer look

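The following values stood far from the others of their group. Of 68 sets of values looked at, 3 did so, and chance flags about 1 in 20 groups. Krt74 in C-IKKα skin had a log2 level of 8.73 in C14, the only growing-hair library of that genotype, and the next highest was 4.45. The mean log2 level of the members minus that of the hair shaft keratins was 4.16 in N9, the highest of the growing-hair libraries, and the next was 2.90. Krt73 per 100 of Krt71 was 19.9 in N9, and the next growing-hair library had 16.6.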

How the results depend on the processing

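Counts of called members were the same as those reported in all comparisons and alternatives tried, except in growing-hair C-IKKα against WT, where DESeq2 called 1 and leaving out a library gave 0 to 7. Without C14 that comparison has no library left and gives no value. Its median log2 fold change ran from -1.99 to -0.63 with a library left out. Over all libraries, the median for C-IKKα against WT was 0.97 with the hair shaft keratin level, 0.99 with the hair set and 1.26 with sex as covariate, and ran from -1.61 to 0.83 with a library left out; edgeR gave -2.24 and DESeq2 -2.26. That for N-IKKα against C-IKKα was -0.54 with the shaft level, -0.73 with the hair set and 0.28 with sex, and ran from 1.06 to 3.18 with a library left out. That for N-IKKα against WT was 0.15 with the shaft level, 0.04 with the hair set, 0.59 in edgeR and 0.58 in DESeq2, and ran from 0.43 to 2.89. In resting-hair skin edgeR and DESeq2 gave -2.08 for N-IKKα against C-IKKα. In resting-hair skin the median for N-IKKα against WT, near 0, was -0.13 with a pseudocount of 5, -0.34 with a filter of 50, -0.60 in edgeR, -0.64 in DESeq2 and -0.016 with sex, and ran from -0.57 to 0.55 with a library left out. In growing-hair skin it was -0.001 in edgeR and -0.012 in DESeq2, and ran from -0.51 to 0.74. The difference between hair sets was 0.10 with a pseudocount of 5, 0.41 in edgeR and 0.47 in DESeq2, and ran from -0.87 to 0.55. For single members of growing-hair N-IKKα against WT, Krt28 was -0.041 in edgeR and -0.05 in DESeq2, and Padi3 -0.001 and -0.012. With WT1 or WT4 left out, that fold change ran from -0.20 to 0.77 for Krt25, -1.40 to 0.21 for Krt26, -0.68 to 0.45 for Krt27, -0.61 to 0.90 for Krt28, -0.42 to 0.74 for Krt71, -1.35 to 0.33 for Krt72, -0.29 to 0.91 for Krt73, -0.25 to 0.93 for Krt74 and -0.51 to 0.70 for Padi3. In resting-hair C-IKKα against WT, Krt26 ran from -0.12 to 0.76. The cause of these reversals was not tested. Counts of called genes over all genes moved more: C-IKKα against WT in resting-hair skin had 195, with 163 to 478 under other settings and 62 to 561 with a library left out. N-IKKα against C-IKKα there had 60, with 46 to 213 and 32 to 178. In growing-hair skin, where 0 were called, DESeq2 called 9 for N-IKKα and 171 for C14 against WT. No paired analysis was possible because the library numbers 1 to 18 are not shared between genotypes.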
